A study of Mus musculus with 6 samples.

Results

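SR proteins are splicing factors whose arginine- and serine-rich tails are phosphorylated before they act, and 10 genes of that control were followed in neonatal testes in which germ cells had lost the SR protein gene *Srsf1*. They were the SR protein kinase genes *Srpk1*, *Srpk2* and *Srpk3*, the CDC-like kinase genes *Clk1*, *Clk2*, *Clk3* and *Clk4*, the related kinase genes *Dyrk1a* and *Prpf4b*, and the transportin gene *Tnpo3*. The genes were taken by symbol from the deposited table and make up 10 of its 54532 genes. No value was a criterion of the choice, although earlier results of these data were known. All 10 were above the filter on low values, a mean of 0.5 FPKM (fragments scaled to gene length and sequencing depth, with a further scaling between libraries).

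Polyadenylated RNA of whole testes from 5 days postpartum (dpp) mice was sequenced in 3 control (Ctrl) and 3 conditional knockout (cKO) samples. The study gives the cKO genotype as *Vasa*-Cre *Srsf1* Fl/del, whereas the Ctrl genotype is labelled only as Ctrl. *Vasa*-Cre is active in germ cells, so by this genotype Sertoli, Leydig and other somatic cells of a cKO testis carry a deleted allele beside an unrecombined floxed allele, and each value sums RNA of all these cells. The comparison asked whether the transcripts of the kinases and the import receptor change in level when *Srsf1* is deleted.

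SRPK kinases act mainly in the cytoplasm, where they phosphorylate the tails of SR proteins, and transportin 3, the product of *Tnpo3*, carries the phosphorylated proteins into the nucleus. There the CLK kinases add further phosphates and release SR proteins from nuclear speckles, the stores of splicing factors. *Clk1* and *Clk4* are also known for transcripts that keep introns and stay in the nucleus. In the testis *Srpk1* is known for high levels in adult germ cells, where its product also phosphorylates protamine.

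The 4 CLK genes are close relatives, so a stretch that they share is shown to compare them. In *Clk1*, *Clk2* and *Clk4* it codes for the signature for which the family is also called LAMMER kinases, whereas the matching stretch of *Clk3* codes for a variant of it. The stretch lies in exon 11 of 13 of a coding transcript of each gene (GRCm38). Each line gives 30 coding bases 5′ to 3′ on the gene's own strand, and capitals mark bases that differ from *Clk1*.
Clk1: gaacatttagcaatgatggaaaggattctt
Clk2: gaGcatCtagcCatgatggaaaggatCctG
Clk3: gaacaCttGgTTatgatggaGaAgattctA
Clk4: gaGcaCCtGgcaatgatggaGCggatCTtA
The stretches lie at chr1:58412982-58413011 on the − strand (*Clk1*), chr3:89175407-89175436 on the + strand (*Clk2*), chr9:57752150-57752179 on the − strand (*Clk3*) and chr11:51280373-51280402 on the + strand (*Clk4*). *Clk2* differed from *Clk1* at 5 of the 30 bases, *Clk3* at 7 and *Clk4* at 9. Over all annotated transcripts, 0 stretches of 50 bases were shared between any of the 10 genes, so reads of that length could be told apart between the CLK relatives.

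*Srsf1* was lower in every cKO sample (45.1, 46.3 and 51.6 FPKM) than in every Ctrl sample (82.1, 89.1 and 88.4 FPKM), as its label implies (log2 fold change −0.85, limma adjusted p-value 0.058). The recovered reads summed to between 15448191 and 18964743 per library. Of 20 germ-cell markers, 19 were tested and 16 were lower without overlap between the groups, beside 12.8% of all 16206 tested genes. The 19 had a median log2 fold change of −1.39, beside 0.0027 over all tested genes. Germ-cell markers summed to 178.8, 402.9 and 188.3 FPKM in the Ctrl samples, against 50.3, 91.8 and 64.6 FPKM in the cKO samples, so Ctrl 2 stood apart from the other Ctrl samples. Medians of the somatic marker lists were −0.35 for peritubular myoid, −0.05 for Sertoli, 0.065 for macrophage, 0.22 for Leydig, 0.34 for endothelial and 0.69 for erythroid genes. In bulk samples, fewer cells of a type and less RNA per cell cannot be told apart. The labels' extraction text mentions retinas, but the retinal genes *Sag* and *Gnat1*, chosen after the labels were read, reached at most 0.094 and 0.021 FPKM, whereas the Sertoli-cell gene *Amh* was at 257 FPKM or more.

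Levels per length ordered the 10 genes from *Clk1*, at a mean of 34.7 FPKM over the 6 samples, to *Srpk3*, at 0.637 FPKM. Between these came *Prpf4b* (24.7 FPKM), *Clk4* (16.3 FPKM), *Clk2* (12.9 FPKM), *Tnpo3* (9.62 FPKM), *Srpk1* (9.22 FPKM), *Dyrk1a* (9.13 FPKM), *Srpk2* (8.87 FPKM) and *Clk3* (7.48 FPKM). Neighbours in this order kept the same order in all 6 samples, with ranges that did not overlap, except in the middle. There *Tnpo3* was above *Srpk1* in 5 of 6 samples, *Srpk1* above *Dyrk1a* in 3 of 6, and *Dyrk1a* above *Srpk2* in 3 of 6, with overlapping ranges. *Clk1* was above 88.5% of the 13204 tested protein-coding genes and *Srpk3* above 2.73% of them.

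**Figure D1:**
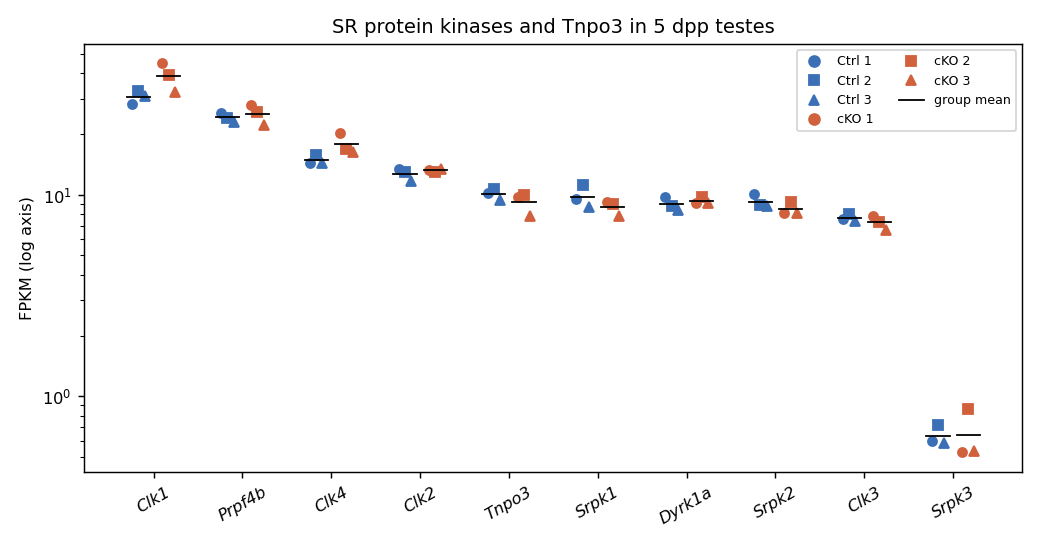
FPKM (log axis) of the 10 genes in each of the 6 testis samples, ordered by their mean; each marker is 1 sample and each line a group mean. The cKO samples of *Clk4* all lie above its Ctrl samples, the groups of the other 9 genes overlap, and *Srpk3* lies far below the rest.

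In the comparison of cKO with Ctrl testes, limma called 0 of the 10 genes lower and 0 higher at an adjusted p-value of 0.05, where 0.0% of all tested genes were called in either direction. The deleted *Srsf1* also missed this threshold (limma adjusted p-value 0.058), so 0 calls do not show unchanged levels. The paper, with a count-based test (DESeq2) at the same threshold, reported both lower and higher genes. Limma voom on the recovered reads also called 0 of the 10, beside 61 lower and 22 higher of all 16206 tested genes. At an unadjusted p-value under 0.05, limma listed *Clk1* and *Clk4*, both higher, 2 of 10 beside 15.9% of all tested genes in either direction, 6.6% higher and 9.31% lower. Of the 10 genes, 1 did not overlap between the groups (*Clk4*, higher), beside 23.1% of all tested genes. The median log2 fold change of the 10 was 0.024, with 6 above 0 and 4 below. The absolute log2 fold change was at most 0.35 for all 10 genes, as for 84.9% of all tested genes. This bound lies just above the largest of the 10 (*Clk1*, 0.32), so that all 10 met it is not a finding. The 95% interval of each of the 10 differences lay inside 1 on the log2 scale in both directions, so a doubling or halving of FPKM + 1 was outside every interval. For *Srpk3*, whose FPKM is below the pseudocount of 1, this says little of a change in FPKM itself. The share of all tested genes with such intervals was not counted, and the median SE over all tested genes was 0.127. These intervals concern whole testes, and a change within germ cells alone was not measured.

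**Figure D2:**
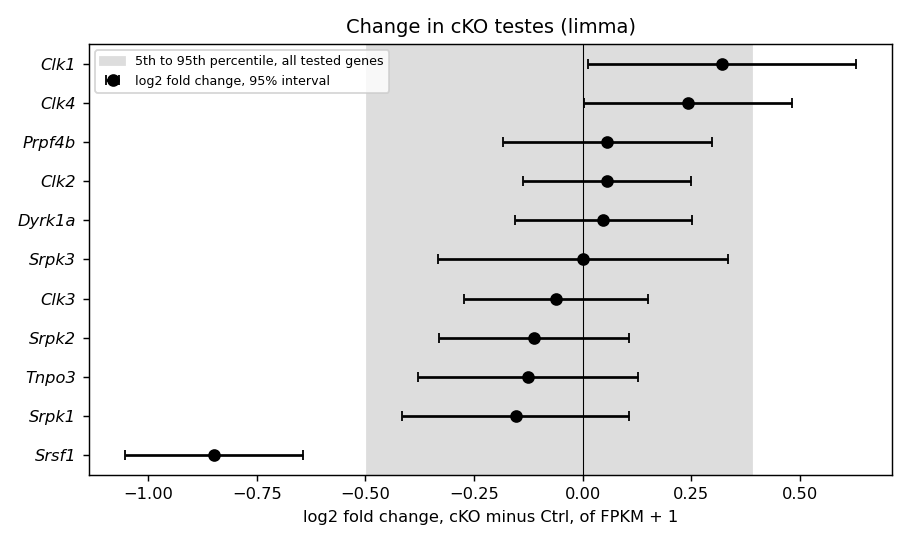
Log2 fold change of FPKM + 1 (cKO minus Ctrl) of the 10 genes and of *Srsf1*, with 95% intervals from limma; the grey band spans the 5th to 95th percentile of all 16206 tested genes, −0.50 to 0.39. *Clk1* and *Clk4* lie highest with intervals just above 0, the intervals of the other 8 genes include 0, and *Srsf1* lies alone on the left at −0.85.

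Among the 10 genes, the log2 fold changes of *Clk1* and *Clk4* were farthest from 0, whereas those of *Clk2* and *Clk3* were closer to 0 than those of *Srpk1*, *Srpk2* and *Tnpo3*. *Clk1* (ENSMUSG00000026034, chr1:58410189-58424066, − strand) measured 28.1, 32.9 and 30.9 FPKM in the Ctrl samples, against 44.9, 39.3 and 32.2 FPKM in the cKO samples. Its highest values were in cKO 1 and cKO 2, whereas cKO 3 lay within the Ctrl range. Group means were 30.6 ± 2.40 (Ctrl) and 38.8 ± 6.36 FPKM (cKO; SD, n = 3 each). The log2 fold change of 0.32 (SE 0.131, 95% interval 0.013 to 0.63) missed the threshold, with a limma adjusted p-value of 0.302. Its size rested in part on single libraries, since it was 0.21 without cKO 1 and 0.45 without cKO 3, with limma adjusted p-values between 0.233 and 0.570 over all alternatives.

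*Clk4* (ENSMUSG00000020385, chr11:51261730-51281766, + strand), likewise a nuclear CDC-like kinase gene, measured 14.3, 15.7 and 14.4 FPKM in the Ctrl samples, against 20.2, 16.9 and 16.2 FPKM in the cKO samples. Every cKO sample was above every Ctrl sample. The mean went from 14.8 ± 0.735 to 17.8 ± 2.15 FPKM (SD, n = 3 per group), 120.0% of Ctrl, and the log2 fold change of 0.24 (SE 0.102, 95% interval 0.002 to 0.48) missed the threshold, with a limma adjusted p-value of 0.311. Without cKO 1 it was 0.15, and under TPM scaling the groups overlapped. Limma adjusted p-values ran from 0.257 to 0.593 over all alternatives.

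*Clk2* (ENSMUSG00000068917, chr3:89164795-89176921, + strand) measured 13.4, 12.9 and 11.7 FPKM in the Ctrl samples, against 13.3, 12.9 and 13.4 FPKM in the cKO samples. The groups overlapped almost wholly, and the log2 fold change was 0.06 (95% interval −0.14 to 0.25, limma adjusted p-value 0.775). *Clk3* (ENSMUSG00000032316, chr9:57750624-57765860, − strand), a kinase known for high levels in the testis, measured 7.54, 7.999 and 7.42 FPKM in the Ctrl samples, against 7.87, 7.36 and 6.67 FPKM in the cKO samples. Its log2 fold change was −0.06 (95% interval −0.27 to 0.15, limma adjusted p-value 0.772). Of its 50-base stretches, 14.1% also occurred in other genes, mostly the antisense gene *Edc3*, which overlaps it by 1284 exonic bases, so part of its reads cannot be assigned where the strand setting of the counting is not given.

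Among the cytoplasmic kinase genes, *Srpk1* and *Srpk2* were the more abundant, and both had overlapping groups. *Srpk1* (ENSMUSG00000004865, chr17:28587648-28622709, − strand) measured 9.51, 11.1 and 8.71 FPKM in the Ctrl samples, against 9.20, 8.95 and 7.85 FPKM in the cKO samples. Ctrl 2, with the highest germ-cell markers, held the highest value and cKO 3 the lowest. Germ-cell markers summed lowest in cKO 1 (50.3 FPKM, against 64.6 FPKM in cKO 3), where *Srpk1* was above its value in Ctrl 3. The log2 fold change was −0.15 (95% interval −0.42 to 0.11, limma adjusted p-value 0.530), and −0.067 without Ctrl 2. The part of the germ-cell share in this difference was not tested.

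*Srpk2* (ENSMUSG00000062604, chr5:23503264-23684617, − strand) measured 10.03, 8.92 and 8.82 FPKM in the Ctrl samples, against 8.12, 9.24 and 8.11 FPKM in the cKO samples. Ctrl 1 was highest, and cKO 2 was above the other two Ctrl samples. The log2 fold change was −0.11 (95% interval −0.33 to 0.11, limma adjusted p-value 0.589). The antisense gene *Kmt2e* overlaps 972 of its exonic bases, and 7.82% of its 50-base stretches also occur in other genes.

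*Srpk3* (ENSMUSG00000002007, chrX:73774405-73778925, + strand), known from striated muscle, was near the floor of measurement. It measured 0.599, 0.717 and 0.585 FPKM in the Ctrl samples, against 0.525, 0.860 and 0.535 FPKM in the cKO samples, from 23 to 40 reads per library. The group means were 0.634 ± 0.073 and 0.640 ± 0.191 FPKM (SD, n = 3 per group), and a difference was not detectable at this depth (95% interval of the log2 fold change −0.33 to 0.33, limma adjusted p-value 0.999). The counting error alone gives a coefficient of variation of 18.4%, beside 20.3% observed over the 6 samples. Of 10 striated-muscle markers, 3 were above the filter, and the list summed to between 5.30 and 7.49 FPKM per sample.

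The import receptor gene *Tnpo3* (ENSMUSG00000012535, chr6:29540827-29609887, − strand) measured 10.1, 10.6 and 9.40 FPKM in the Ctrl samples, against 9.69, 9.94 and 7.88 FPKM in the cKO samples. Only cKO 3 lay below the Ctrl range. The log2 fold change was −0.13 (95% interval −0.38 to 0.13, limma adjusted p-value 0.597), and −0.031 without cKO 3.

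The related kinase genes stayed within the spread of replicates. *Dyrk1a* (ENSMUSG00000022897, chr16:94570010-94695517, + strand), a dual-specificity kinase whose gene dose matters in Down syndrome, measured 9.70, 8.76 and 8.43 FPKM in the Ctrl samples, against 9.07, 9.73 and 9.07 FPKM in the cKO samples. Its log2 fold change was 0.05 (95% interval −0.16 to 0.25, limma adjusted p-value 0.822). *Prpf4b* (ENSMUSG00000021413, chr13:34875302-34906064, + strand), a kinase that acts on spliceosome proteins, measured 25.4, 24.1 and 23.03 FPKM in the Ctrl samples, against 27.9, 25.8 and 22.2 FPKM in the cKO samples. Its log2 fold change was 0.06 (95% interval −0.18 to 0.30, limma adjusted p-value 0.819), with cKO samples at both ends of the range.

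Summed over genes, the CLK family measured 63.4, 69.5 and 64.5 FPKM in the Ctrl samples, against 86.3, 76.4 and 68.5 FPKM in the cKO samples, and the groups overlapped. The SRPK family measured 20.1, 20.8 and 18.1 FPKM in the Ctrl samples, against 17.8, 19.05 and 16.5 FPKM in the cKO samples, again with overlap. The ratio of the CLK to the SRPK sum ran 3.15, 3.35 and 3.56 over Ctrl 1 to 3, whereas it ran 4.83, 4.01 and 4.15 over cKO 1 to 3. This ratio was formed after the values were seen, beside other sums, shares and ratios of these genes, and is given without a test. Its groups did not overlap. Nor did those of the *Clk3* share of the CLK sum, with means of 11.6% in Ctrl and 9.50% in cKO samples. Among all tested genes taken singly, 23.1% did not overlap.

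**Figure D3:**
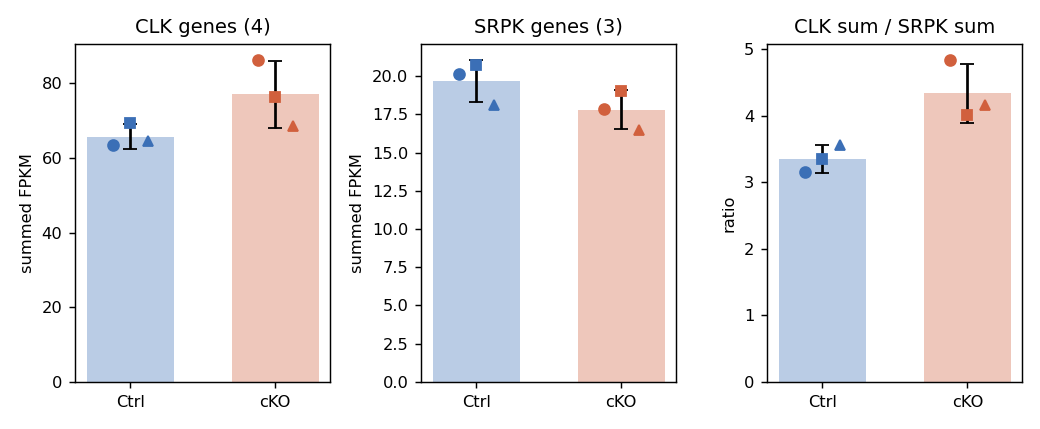
Summed FPKM of the 4 CLK and the 3 SRPK genes and the ratio of the sums in Ctrl and cKO testes; bars are means, error bars SD (n = 3) and markers single samples (circle, square and triangle for replicates 1, 2 and 3). The family sums overlap between the groups, whereas the ratio runs from 3.15 to 3.56 in Ctrl and from 4.01 to 4.83 in cKO samples.

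Over the 6 samples, *Clk1* and *Clk4* varied together, with Pearson's r of 0.945 (exact permutation p = 0.0042, adjusted p = 0.188 over the 45 pairs of genes) and Spearman's rank correlation of 0.943 (exact permutation p = 0.017, adjusted p = 0.375). Without the 2 samples farthest from the median of *Clk1*, r was 0.786. Around the group means it was 0.879, below the values of *Srpk2* with *Dyrk1a* (0.947), *Clk1* with *Clk3* (0.936) and *Clk3* with *Clk4* (0.906). Of the 45 pairs, 0 passed an adjusted p of 0.05. The r was next highest for *Clk3* with *Tnpo3* (0.894) and *Srpk1* with *Tnpo3* (0.883), both with an adjusted permutation p of 0.5, and the first fell to −0.05 without the 2 farthest samples. These samples share the difference between groups, and cKO 3 was the lowest of the 6 for 5 of the 10 genes.

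Genes whose pattern over the 6 samples was most like that of a member were searched among 12098 protein-coding genes at 1 FPKM or more, as a description. For *Clk1* these were *Wdr45* (r = 0.982), *Mmp9* (r = 0.976) and *Thumpd2* (r = 0.970). For *Srpk1* they were *Dppa4* (r = 0.994), *Hemk1* (r = 0.994) and *Yipf2* (r = 0.992), and for *Tnpo3* they were *Crybg3* (r = 0.996), *Sik2* (r = 0.993) and *Myo9a* (r = 0.992). *Dppa4* (a gene of pluripotent and germ cells), *Hemk1* and *Yipf2* were each highest in Ctrl 2, at 9.54, 6.63 and 6.55 FPKM. Each was lowest in cKO 3, at 2.26, 4.14 and 4.38 FPKM. *Srpk1* had the same extremes, which the search itself selected for. With 6 samples, many genes reach such values of r, and 70, 297 and 229 genes had r above 0.9 with *Clk1*, *Srpk1* and *Tnpo3*.

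FPKM divides reads by the summed exons of all annotated transcripts of a gene, including those that keep introns, and the deposited length of all 10 genes equalled that sum in GENCODE mouse release 21. For *Clk1*, 77.9% of the 8132 bases lie in no protein-coding transcript, and 7 of its 13 transcripts are annotated as retaining an intron. The share was 67.4% for *Tnpo3* and 62.2% for *Clk4*, against 23.4% for *Dyrk1a* and 6.95% for *Prpf4b*. Were all reads to lie in exons of protein-coding transcripts, an upper limit computed after the data were seen, the means would be 157.2 FPKM for *Clk1*, 43.1 FPKM for *Clk4*, 29.5 FPKM for *Tnpo3* and 26.6 FPKM for *Prpf4b*. *Prpf4b* would then move from rank 2 to rank 5 and *Tnpo3* from rank 5 to rank 4, and *Clk1* would stay first. *Clk4* would move from rank 3 to rank 2 and *Clk2*, at 29.9 FPKM, from rank 4 to rank 3. Lower down, *Clk3* would move from rank 9 to rank 7 and *Dyrk1a* from rank 7 to rank 9. The length was the same for both groups. Reads of retained introns cannot be told from those of spliced transcripts in gene-level values.

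**Figure D4:**
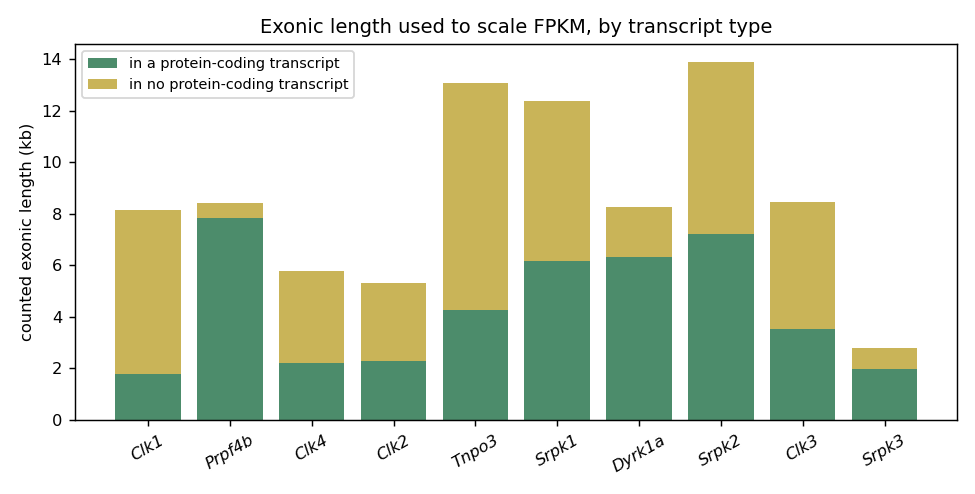
Exonic length in kilobases by which FPKM was scaled for each gene, split into bases in a protein-coding transcript and bases in none (stacked bars, GENCODE mouse release 21). *Clk1* has 1796 of 8132 bases in a protein-coding transcript, whereas *Prpf4b* has 7844 of 8430.

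Beside the members, 4 groups of genes of the same pathway were counted in the same limma test, which called 0 genes in each. The substrates, 13 SR and SR-like protein genes, showed a median of 0.035 on the log2 scale, from −0.85 for *Srsf1* to 0.28 for *Srsf6*. *Srsf6*, a splicing factor, measured 99.6, 93.0 and 96.2 FPKM in the Ctrl samples, against 111, 116 and 125 FPKM in the cKO samples, without overlap, and its limma adjusted p-value was 0.202. Besides *Srsf6*, *Srsf5* and *Srsf11*, named after their values were seen, were higher without overlap, and *Srsf1* was the gene lower without overlap, which gives 3 of 13 higher beside 10.3% of all tested genes and 1 of 13 lower beside 12.8%.

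Of 11 kinases related to the members, 10 were tested, with a median of 0.022, from −0.15 for *Cdk12*, a kinase of RNA polymerase II, to 0.40 for *Dyrk2*. *Dyrk2* measured 5.44, 4.86 and 6.13 FPKM in the Ctrl samples, against 7.11, 7.79 and 7.68 FPKM in the cKO samples, and its limma adjusted p-value was 0.157. It was higher without overlap, as was *Hipk1*, named after its values were seen. That gives 2 of 10 higher beside 10.3% of all tested genes, and 0 lower beside 12.8%.

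The 8 phosphatase genes, whose products remove such phosphates or direct the enzymes that do, had a median of −0.035, from −0.32 for *Ppp1r8*, a nuclear targeting subunit of protein phosphatase 1, to 0.05 for *Ppp1r10*. *Ppp1r8* measured 29.7, 36.9 and 30.4 FPKM in the Ctrl samples, against 24.3, 24.3 and 28.3 FPKM in the cKO samples, without overlap (limma adjusted p-value 0.252). Ctrl 2 was highest for this gene too. Of the 8 genes, 1 was lower without overlap, beside 12.8% of all tested genes, and 0 were higher, beside 10.3%.

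The 16 genes of nuclear import had a median of −0.067, from −0.33 for *Nutf2*, which returns Ran to the nucleus, to 0.093 for *Tnpo2*, a transportin of other cargoes. *Nutf2* measured 44.5, 42.5 and 42.6 FPKM in the Ctrl samples, against 32.8, 31.4 and 39.0 FPKM in the cKO samples, without overlap (limma adjusted p-value 0.205). Of the 16, 11 were below 0 and 5 above, beside 50.5% above 0 over all tested genes. Without overlap, 1 of the 16 was lower (*Nutf2*), beside 12.8% of all tested genes. Likewise 1 was higher (*Ipo7*, named after its values were seen), beside 10.3%.

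**Figure D5:**
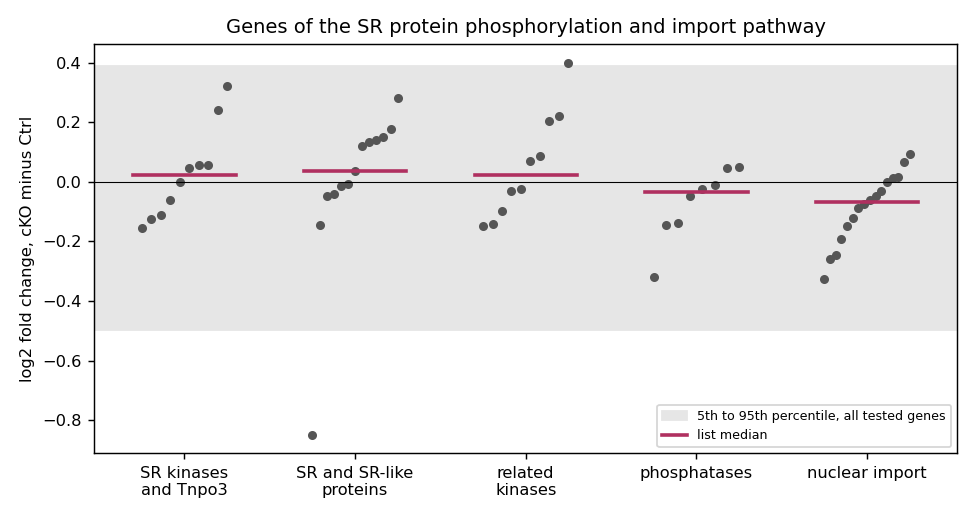
Log2 fold change (cKO minus Ctrl) of every tested gene in the 10 SR kinase and *Tnpo3* genes and in the 4 related lists; points are genes, red lines list medians and the grey band the 5th to 95th percentile of all tested genes. All 5 medians lie between −0.067 and 0.035, and *Srsf1* is the single point below the band.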

How the data were processed

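RNA-seq values of 6 testis samples were analysed, grouped by title and genotype label. Per the labels and methods, the authors aligned paired-end reads to the mouse genome (mm10, HISAT2 2.0.5) and counted them with featureCounts, and the deposited values are FPKM; strand setting and annotation release are not given in the sources used here. All products of FPKM and length were whole multiples of 1 step per sample (within 0.01), so reads were recovered. The deposited FPKM already carried median-of-ratios scaling between libraries.

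Genes whose mean reached 0.5 FPKM were tested on log2(FPKM + 1), which understates changes of low genes, with limma 3.58.1 (R 4.3.3; 2 groups, no covariate, mean-variance trend, two-sided, Benjamini-Hochberg). The test was also run on simulated reads with known changes, and its power at changes as small as those of the members is not given here. Permutation tests used SciPy 1.17.1. Members and lists were chosen with earlier results of these data known. All 10 members were named, with the extremes of each related list and the 3 genes most like *Clk1*, *Srpk1* and *Tnpo3*. Replicates are taken as separate samples; p-values measure the spread between them. Intervals of counts cover counting error only. The alternatives are those given in the closing section. GENCODE mouse release 21 held 54409 of the identifiers, and lengths, transcripts and (with the GRCm38 genome) sequences were read from it.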

Additional observations from a re-analysis of the deposited data

How the results depend on the processing

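Depth limited *Srpk3* most among the 10 genes (23 to 40 reads per library, against 871 to 5742 for the other 9). Limma called 0 of the members tested under each of 15 alternatives (pseudocount 0.1, a filter at 1 FPKM or none, protein-coding genes only, TPM, quantile normalization, voom, no mean-variance trend, a replicate block and 6 left-out libraries). All 10 were tested except under the filter at 1 FPKM, which *Srpk3* did not pass. The log2 fold change of *Srpk3* changed sign to −0.012 with the pseudocount of 0.1, −0.0042 with TPM and −0.015 with voom, and ran from −0.094 to 0.050 with a library left out. That of *Prpf4b* ran from −0.015 (without cKO 1) to 0.145. The other 8 members kept their direction. The members without overlap were 0 under TPM and 2 to 3 with a library left out, where fewer samples make separation easier.

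*Srsf1* passed the threshold with protein-coding genes only (−0.85, limma adjusted p 0.016), TPM (−0.86, 0.036) and voom (−0.86, 0.025), and was then the 1 SR substrate called lower. All tested genes called lower and higher were 176 and 37 with protein-coding genes only, 1 and 4 with TPM, and 61 and 22 with voom, against 0 and 0. Without the trend 1 gene was higher, and leaving out a library gave 0 to 15 lower (15 without Ctrl 2) and 0 to 3 higher. The cause was not tested. Fewer genes (13204) entered with protein-coding genes only, and fewer samples with a library left out. TPM, voom and the fit without the trend kept all genes and samples. Deviations of same-numbered samples from their group means correlated weakly (r of 0.066, 0.016 and 0.088 for the numbers 1, 2 and 3). Differently numbered samples gave r from −0.095 to 0.041. With 3 samples per group, these values cannot decide whether the numbers pair the samples. The replicate block gave 84 lower and 14 higher genes, *Srsf1* at −0.85 (adjusted p 0.033 in limma) and 1 SR substrate lower.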
